A study of Mus musculus with 20 samples.

Results

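Gene expression on day 60 was compared with that on day 5 in mouse flank tissue given Ad-VEGF-A164, an adenovirus that carries the VEGF-A164 isoform of vascular endothelial growth factor into the cells it infects. These are the first and the last harvest after the vector. The comparison used 9 of the 20 arrays of the series, which were all arrays of day 60 (5 arrays, A to E) and the arrays B to E of day 5 (4 arrays), chosen by the day and vector named for each sample. Beside them, 5 control arrays of day 0 and 5 arrays of day 20 with the same vector entered the fit and are given for reference. On the remaining array the title named day 5 whereas its source name and tissue field named the control, and it entered no comparison.

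Each array was an Affymetrix Mouse Genome 430 2.0 GeneChip, which reads a gene's RNA with 1 or more probe sets and gives each a MAS5 signal on a linear scale. Strain, sex, age and dose were not given in the sources used here. No sample label said that arrays came from separate animals, so the p-values rest on the spread among these samples, and that spread may be technical. The only controls were those of day 0 and no empty vector was named, so effects of the growth factor, of the virus, of the injection and of elapsed time cannot be told apart. In whole tissue, fewer cells of a type and less RNA per cell cannot be told apart either.

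VEGF-A acts on endothelial cells through the receptor KDR (VEGFR-2), while FLT1 (VEGFR-1) binds it tightly and limits its supply. Under high VEGF-A, tip cells lead new sprouts, endothelial cells divide and vessels become leaky, and fibrin, fibroblasts, monocytes and pericytes gather around them. When the factor is withdrawn, vessels that have not acquired a firm coat of mural cells tend to regress. The flank also holds skin, subcutaneous fat, mammary epithelium in females, nerve and body wall muscle, so that its arrays read many tissues at once.

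The 4 day 5 arrays were more alike than the 5 day 60 arrays. The median correlation between arrays of a group was 0.965 on day 5 and 0.928 on day 60, and the median gene's SD on the log2 scale was 0.236 and 0.304. The Actb 3' probe set over its 5' probe set, a ratio that grows as RNA breaks down, was 4.82 ± 1.96 (SD, n = 4) on day 5 and 8.82 ± 4.24 (n = 5) on day 60, where arrays A, B and D stood at 14.0, 10.4 and 10.9. The difference in mean log2 ratio was 0.80 (exact two-sided permutation test, p = 0.143, smallest possible p = 0.0159). For Gapdh the difference was 0.67 (exact permutation p = 0.19, 5 against 4 arrays). The Gapdh ratio stood at 7.72 on day 60 A and 3.62 on D, and at 1.68 to 2.48 on the other day 60 arrays. On day 5 it ran from 1.57 to 2.20. Defining markers of endothelium, pericytes, smooth muscle, fibroblasts, macrophages, fat, skeletal muscle, luminal epithelium and epidermis were measured, while Cd3d, Cd3e and Cd3g of T cells and Cd79a of B cells lay under the minimum signal.

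Genes were tested with limma on log2(signal + 100), a scale on which changes of dim genes come out smaller than they are, and called at a Benjamini-Hochberg adjusted p under 0.05. Of 13594 genes tested, 3312 (24.4%) differed between day 60 and day 5. Of these, 1654 (12.2%) were higher on day 60 and 1658 (12.2%) were lower. Changes of at least 2-fold were called in 1152 genes (8.47%), of which 498 were higher (3.66%) and 654 lower (4.81%). The groups did not overlap in 2738 genes (20.1%): in 1333 (9.81%) every day 60 array lay above every day 5 array, and in 1405 (10.3%) every day 60 array lay below. The median change over all tested genes was 0.053 on the log2 scale. Genes called higher numbered 1101 without day 5 B, 861 without day 60 A, B and D, and 877 with the middle probe set of each gene. With the middle probe set only 10952 genes passed the minimum signal and were tested, and list counts given below for it cover only such members. The largest fall was 26.5-fold and the largest rise among genes whose arrays did not overlap was 16.2-fold.

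**Figure D1:**
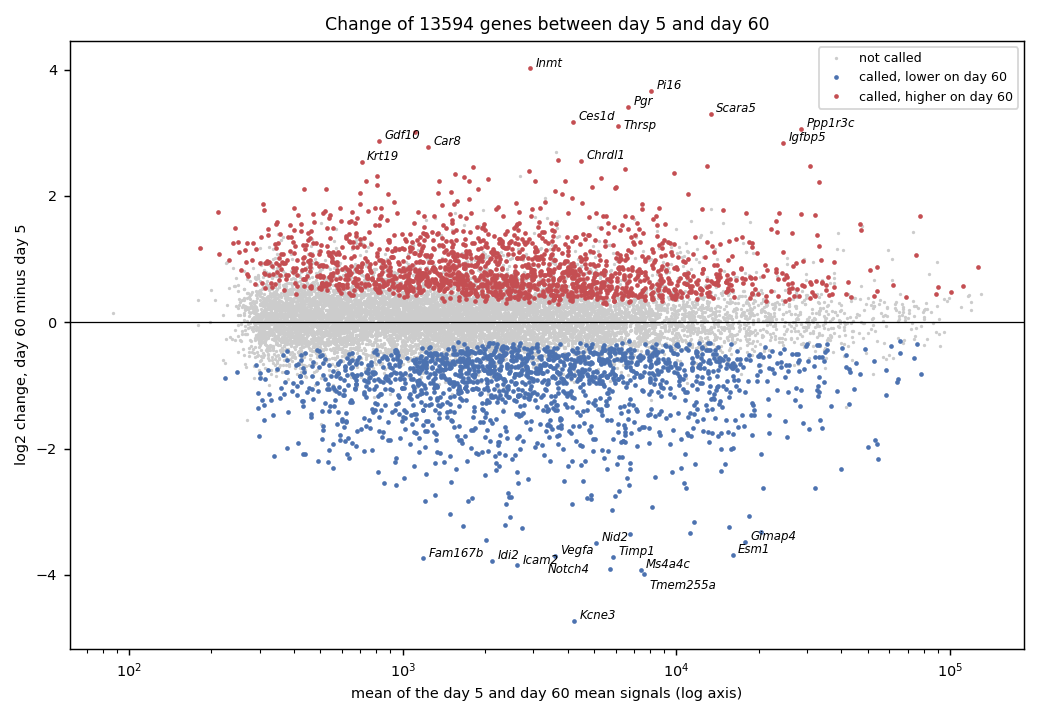
Log2 change from day 5 to day 60 (y axis) against the mean of both group signals (x axis, log scale) for 13594 genes, with called genes in colour and the 12 largest called rises and 12 largest called falls whose arrays did not overlap named. The falls reach -4.73 (Kcne3) and the named rises 4.02 (Inmt).

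The signal of Vegfa, the gene whose product the vector supplies, was read first. On the Vegfa probe set with the higher mean, the 4 day 5 arrays (B to E, here and below) gave 9410.0, 8386, 3928 and 5232, and the 5 day 60 arrays (A to E) gave 332, 1076, 242, 219 and 449. Every day 60 array lay below every day 5 array, and array B was the highest of day 60. Vegfa fell 13-fold (log2 change -3.70 ± 0.37, SE, limma adjusted p = 9.44e-07). Day 0 arrays spanned 66.5 to 467, and the change from day 0 to day 60 was 0.87 (adjusted p = 0.214). A second probe set of Vegfa moved the other way, from 719.9 ± 66.1 (SD, n = 4) on day 5 to 1750.1 ± 499 (n = 5) on day 60 (log2 change 1.13, limma adjusted p = 0.000469). On day 0 this second probe set averaged 2022 ± 479 (SD, n = 5), above its day 5 mean. The positions of both probe sets on the transcript were not analysed here, and the fall of Vegfa is that of the brighter one.

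**Figure D2:**
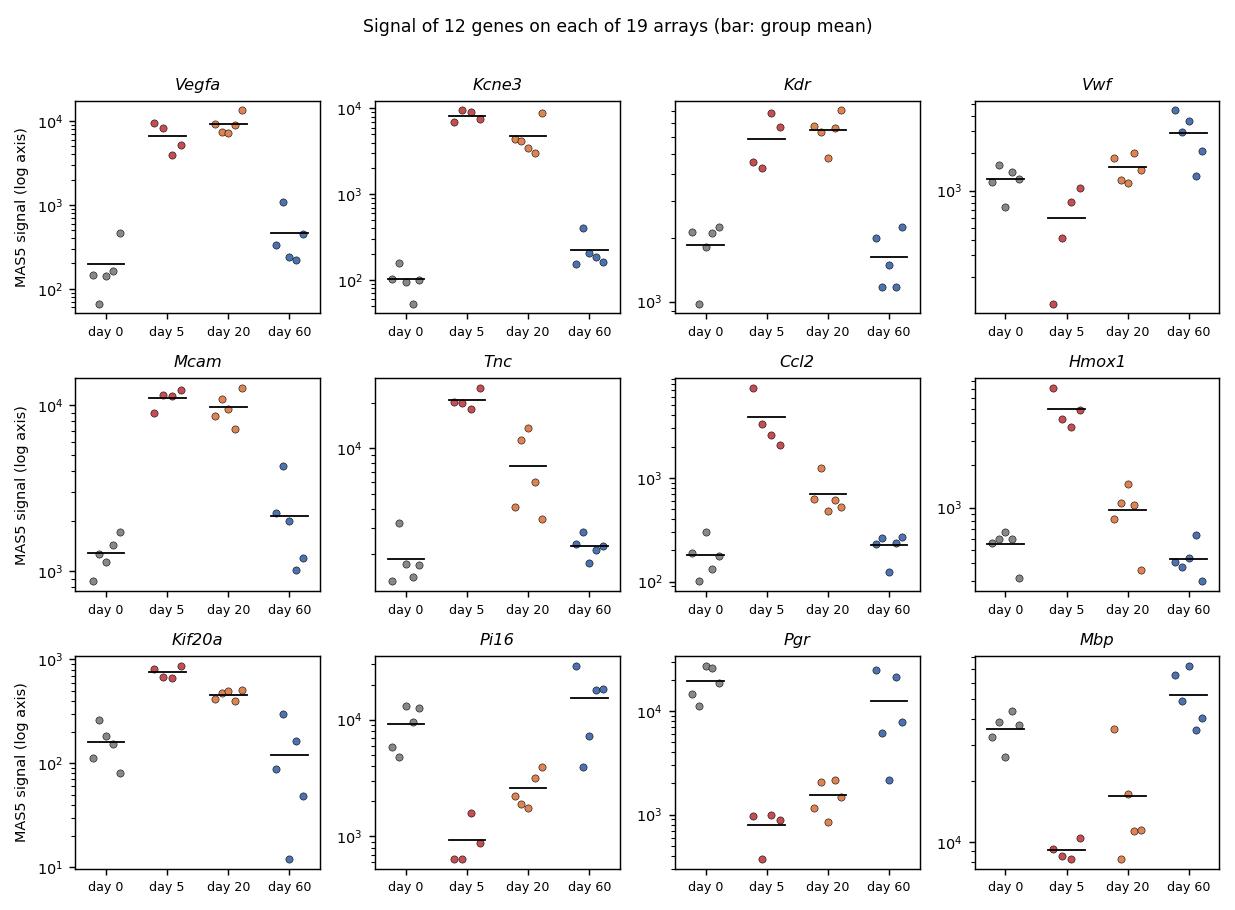
MAS5 signal (y axes, log scale) of 12 genes on each of 19 arrays in 4 groups by day, with a bar at each group mean. In the first 3 panels (Vegfa, Kcne3, Kdr) and in Mcam, Tnc, Ccl2, Hmox1 and Kif20a all day 60 arrays lie below all day 5 arrays, and in Vwf, Pi16, Pgr and Mbp they lie above.

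Of 14 tested VEGF and angiopoietin ligands and receptors, 8 fell and 2 rose, with a median log2 change of -1.04. Kdr, the main signalling receptor for VEGF-A, read 4556, 4303, 7820.2 and 6691 on day 5 and 2003, 1168, 1488, 1175 and 2263 on day 60. All day 60 values were under all day 5 values and within or near the day 0 span of 978 to 2258. Kdr fell 3.46-fold (log2 change -1.79 ± 0.25, SE, limma adjusted p = 3.73e-05). Flt1, the decoy-like receptor, read 6580.4, 10503, 10266 and 9846 on day 5 and 1823, 2825, 1315, 2139 and 1080.1 on day 60, again without overlap. Its fall was 5.03-fold (log2 change -2.33 ± 0.26, SE, limma adjusted p = 4.1e-06).

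The other receptors did not all move alike. Flt4, the VEGF-C receptor of lymphatic and sprouting endothelium, fell 3.12-fold (adjusted p = 0.00032, not called on its middle probe set), Tie1 fell 4.59-fold (adjusted p = 6.63e-05) and the co-receptor Nrp1 fell 2.11-fold (adjusted p = 5.23e-05). Tek, the receptor for angiopoietins, averaged 5419 on day 5 and 6145 on day 60 (log2 change -0.011, adjusted p = 0.984). Nrp2, a co-receptor of veins and lymphatics, rose 1.32-fold (adjusted p = 0.0455), a call that was lost in 19 of the 33 other settings tried and whose sign turned, to -0.023, with the middle probe set of each gene.

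The ligands separated as well. Angpt2, which endothelium releases to loosen vessel walls, fell 4.31-fold from 3898 ± 397 (SD, n = 4) to 837 ± 172 (n = 5, limma adjusted p = 2.79e-07). Angpt1, its stabilising counterpart made by mural cells and fibroblasts, read 981, 980.0, 952 and 1206 on day 5 and 2012, 1728, 2010.5, 1370.2 and 1602 on day 60. Every day 60 value was higher, and Angpt1 rose 1.62-fold (log2 change 0.70 ± 0.14, SE, limma adjusted p = 0.00156). Vegfc, the lymphatic growth factor, fell 1.94-fold (adjusted p = 0.00775). Pgf, placental growth factor, which binds Flt1, read 471, 866, 562 and 987 and then 426, 727, 170.5, 315 and 98.7, groups that overlapped (limma adjusted p = 0.0661). With the middle probe set of each gene 4 in place of 8 members of this list were called lower.

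Among 24 tip cell genes, which mark the leading cells of sprouts, 20 fell and none rose, with a median log2 change of -1.56. The list mean ran from 13.02 to 13.08 on the 4 day 5 arrays and from 10.98 to 11.47 on the 5 day 60 arrays, on the log2(signal + 100) scale. Kcne3, a potassium channel subunit, read 6899.6, 9545, 9032 and 7512 on day 5 and 153, 410.3, 208, 184 and 163 on day 60, the last values 26.5-fold lower on the fitted scale (log2 change -4.73 ± 0.26, SE, limma adjusted p = 4.87e-10). It was the largest fall of any called gene, and array B was the highest of day 60. Esm1, the proteoglycan endocan secreted by tip cells, read 35093, 32811, 24276 and 24559 and then 2601, 7092, 3206, 896 and 812. Array B was again the highest of day 60, and no value of day 60 reached those of day 5. Esm1 fell 12.8-fold (log2 change -3.68 ± 0.42, SE, limma adjusted p = 5.32e-06).

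Other tip cell genes fell by less. Cxcr4, the CXCL12 receptor, fell 4.79-fold, Adm, the vasoactive peptide adrenomedullin, 2.65-fold, Dll4, the Notch ligand of tip cells, 2.31-fold and Pdgfb, which recruits pericytes, 2.06-fold, all called. Igfbp3, an IGF-binding protein, had a log2 change of -3.33, also called. Aplnr, the apelin receptor of sprouting and venous endothelium, read 68055, 73315, 93546 and 95375 and then 40232, 17616, 16378, 23404 and 20386 and fell 3.65-fold (log2 change -1.87 ± 0.22, SE, limma adjusted p = 6.78e-06). Cd34, Apln, Nid1 and Unc5b did not pass, with log2 changes of -0.95, -0.65, -0.60 and -0.46.

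Of 32 pan-endothelial markers 27 fell and 1, Vwf, rose, with a median log2 change of -1.57. Icam2, an adhesion molecule of resting and activated endothelium, read 4060.1, 5122, 5513 and 5122 on day 5 and 321, 224, 641, 54.2 and 229 on day 60. Day 60 values were all under those of day 5, and Icam2 fell 14.4-fold (log2 change -3.85 ± 0.34, SE, limma adjusted p = 2.64e-07). Emcn, the sialomucin endomucin of capillaries and veins, fell 10.2-fold (log2 change -3.35 ± 0.25, SE, limma adjusted p = 4.29e-08). The junction gene Cdh5 fell 5.46-fold from 14082 ± 1781 (SD, n = 4) to 2603 ± 1016 (n = 5), and the transcription factors Erg and Sox18 fell 4.57-fold and 3.84-fold. Pecam1, Eng and Plvap, the diaphragm protein of leaky capillaries, fell 2.47-fold, 2.52-fold and 3.38-fold. Cldn5, Tek, Ptprb and Podxl did not pass, with log2 changes of -0.25, -0.011, -0.46 and -0.74.

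Vwf, the clotting factor carrier stored by endothelium of larger vessels, went the other way. It read 122, 414, 809 and 1045 on day 5 and 4457, 2959.5, 3629.8, 1313 and 2098 on day 60. The day 5 arrays were spread widely, from 122 to 1045, and all day 60 arrays lay above them. Vwf rose 4.71-fold (log2 change 2.24 ± 0.39, SE, limma adjusted p = 0.000354). The day 0 arrays spanned 739 to 1619, and the change from day 0 to day 60 was 1.09 (adjusted p = 0.137).

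Vessel subtypes differed in their counts. Of 18 Notch and arterial genes 6 fell and 1 rose (median -0.053). Notch4, the endothelial Notch receptor, read 6769, 10533, 11732 and 13841 on day 5 and 828, 1064, 836, 376 and 241 on day 60, far below on every array, and fell 15-fold (log2 change -3.91 ± 0.35, SE, limma adjusted p = 3.05e-07). Hey1, a Notch target, fell 2.81-fold (adjusted p = 1.61e-05) and Sox17, an arterial transcription factor, 2.73-fold, whereas Notch1, Notch2, Jag1 and Hes1 had log2 changes of 0.39, 0.67, -0.071 and 0.19, none called. Bmx, an arterial kinase, rose 1.59-fold (adjusted p = 0.0275), which was lost in 11 of 33 other settings.

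Of 9 venous and leukocyte adhesion genes 3 fell (Aplnr, Vcam1 and Icam1) and 3 rose (Nrp2, Ackr1 and Vwf). Ackr1, the chemokine-binding receptor of venules, rose 2.39-fold from 1267 ± 82.1 (SD, n = 4) to 3342 ± 1225 (n = 5, limma adjusted p = 0.00101), while Vcam1 and Icam1, to which leukocytes bind, fell 2.6-fold and 2.27-fold. Of 8 lymphatic genes Flt4 fell and Reln rose, near the 12.2% of all tested genes called in each direction. Reln, the secreted protein reelin, read 836, 778, 1024 and 1226 on day 5 and 7906, 5665, 5158, 2663 and 4294 on day 60 and rose 4.7-fold (log2 change 2.23 ± 0.26, SE, limma adjusted p = 6.47e-06), with no overlap between the groups. Lyve1 and Pdpn did not pass, with log2 changes of -0.88 and -0.39.

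Pericytes are the mural cells of small vessels. Of 14 pericyte genes 7 fell and none rose, with a median log2 change of -0.87. Kcnj8, a potassium channel of pericytes, read 2815, 3575, 1710.4 and 2647 on day 5 and 788, 496, 660.5, 574 and 928 on day 60, with all day 60 values lower, and fell 3.49-fold (log2 change -1.80 ± 0.19, SE, limma adjusted p = 2.18e-06). Mcam, an adhesion molecule that pericytes and endothelium share, fell 5.55-fold (log2 change -2.47 ± 0.29, SE, limma adjusted p = 7.26e-06). Pdgfrb, the receptor that draws pericytes to PDGF-B, fell 2.42-fold from 26488 ± 2521 (SD, n = 4) to 11377 ± 4027 (n = 5), and Cspg4, the NG2 proteoglycan, fell 2.02-fold. Rgs5, one of the most abundant pericyte transcripts, had a log2 change of -0.72 (adjusted p = 0.0655).

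Of 14 tested genes of contractile smooth muscle none fell and 3 rose (Lmod1, Pln and Ldb3), with a median of 0.16. These counts stand beside 12.2% of all tested genes called in each direction. Acta2, the smooth muscle actin, averaged 66534 ± 5287 (SD, n = 4) on day 5 and 53189 ± 30541 (n = 5) on day 60 (log2 change -0.51, adjusted p = 0.212). Myh11, the smooth muscle myosin, had a log2 change of 0.071 (adjusted p = 0.924). Ldb3 and Pln, which striated muscle also expresses, rose 2.69-fold and 2.52-fold, both with overlapping arrays and both with calls lost in several other settings. With array weights 5 members were called lower in place of none.

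Vascular basement membrane wraps endothelium and pericytes. Of 19 genes 8 fell and 1 rose. Nid2, a linker of laminin and collagen, read 11106, 10864, 7352 and 8295 on day 5 and 732, 812, 502, 690.5 and 999 on day 60, with no overlap, and fell 11.3-fold (log2 change -3.49 ± 0.20, SE, limma adjusted p = 7.39e-10). Col4a2 read 31846, 36500.2, 33518 and 39853 and then 6807, 9368, 3518, 5229 and 4752 and fell 6.19-fold (log2 change -2.63 ± 0.20, SE, limma adjusted p = 4.29e-08), and its partner chain Col4a1 fell 4.47-fold. The laminin chains Lama4, Lamc1 and Lamb1 fell 4.41-fold, 2.79-fold and 2.58-fold, while Lama2, Lama5, Lamb2 and the perlecan gene Hspg2 had log2 changes of 0.25, 0.21, 0.06 and -0.036, none called. Col4a4, a chain of specialised basement membranes, rose 2.68-fold (adjusted p = 0.00574). With the middle probe set of each gene 5 members were called lower.

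The connective tissue matrix fell in large part too. Of 24 fibrillar and associated collagens and crosslinking enzymes 15 fell and none rose (median -0.94), and of 16 provisional and matricellular matrix genes 8 fell and none rose (median -1.40). Tnc, the wound matrix glycoprotein tenascin-C, read 20357, 20052, 18251 and 25035 on day 5 and 2335, 2813, 1738, 2120.3 and 2279.6 on day 60, the latter all lower by a wide margin. It fell 8.96-fold (log2 change -3.16 ± 0.32, SE, limma adjusted p = 1.33e-06). Col12a1, a fibril-associated collagen of strained tissue, fell 5.15-fold (log2 change -2.36 ± 0.30, SE, limma adjusted p = 1.56e-05). Lox, which crosslinks collagen, fell 3.45-fold, the collagen chaperone Serpinh1 2.76-fold, and the wound matrix genes Postn, Sparc and Thbs1 3.93-fold, 3.81-fold and 4.66-fold.

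The main structural collagens moved less. Col1a1 fell 2.33-fold from 29296 ± 3498 (SD, n = 4) to 13779.9 ± 7079 (n = 5, limma adjusted p = 0.00695) and Col1a2 fell 1.47-fold (adjusted p = 0.0374). Col3a1 had a log2 change of -0.36 (adjusted p = 0.189). Fn1 and Vcan, the fibronectin and versican of provisional matrix, had -0.67 and -0.28, neither called.

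Of 21 matrix proteases and inhibitors 7 fell and 2 rose, beside 12.2% of all tested genes called in each direction. Timp1, a metalloproteinase inhibitor induced in inflamed tissue, read 15306, 13121, 6425 and 8917 on day 5 and 833, 1435, 531, 566 and 436 on day 60, with no overlap, and fell 13.1-fold (log2 change -3.71 ± 0.36, SE, limma adjusted p = 7.44e-07). Timp2, its relative of resting stroma, read 11115, 9915, 10398 and 12127 and then 54477, 23453, 19623, 36722 and 42682, all higher, and rose 3.02-fold (log2 change 1.60 ± 0.25, SE, limma adjusted p = 0.000134). Other probe sets of Timp2 gave log2 changes of 1.04 and 1.44, both called, and of -0.30 and -0.03, neither called. Timp4 also rose, 2.16-fold, but was not called on its middle probe set. Among proteases Adamts4, an aggrecanase, fell 7.38-fold (log2 change -2.88 ± 0.30, SE, limma adjusted p = 1.72e-06), and Mmp13, a collagenase, fell 3.29-fold (adjusted p = 0.0448) with overlapping arrays and a call lost in 17 of 33 other settings. Mmp2 and Mmp14 did not pass, with log2 changes of 0.70 and -0.38.

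Resting fibroblast genes went mainly upward: of 16 tested 7 rose and 2, Bgn and Aspn, fell (median 0.87). Pi16, a marker of fibroblasts around vessels and in fascia, read 642, 640.1, 1583 and 874 on day 5 and 28955, 3970.2, 7227, 17912 and 18259 on day 60. Every day 60 array was higher, array A the most and array B the least, and Pi16 rose 12.7-fold (log2 change 3.66 ± 0.46, SE, limma adjusted p = 1.42e-05). Dcn and Lum, small proteoglycans that bind collagen fibrils, rose 2.93-fold and 3.33-fold. Dpt, dermatopontin, rose 3.26-fold from 12124 ± 1846 (SD, n = 4) to 44950.5 ± 24405 (n = 5), and Clec3b and Fbln1 rose 2.71-fold and 2.45-fold. Bgn and Aspn, proteoglycans of remodelling matrix, fell 3.38-fold (adjusted p = 0.000116) and 2.91-fold (adjusted p = 6.32e-05).

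Among the 12 largest rises whose arrays did not overlap were several genes of no list. Scara5, a ferritin receptor of stromal fibroblasts, read 3394, 1105, 1898 and 2224 on day 5 and 31341, 8822, 14058, 18739 and 49458 on day 60 and rose 9.8-fold (log2 change 3.29 ± 0.36, SE, limma adjusted p = 2.82e-06). Inmt, a methyltransferase of indole amines, read 246, 194, 190.5 and 298 and then 5970.1, 2550.4, 4700.1, 6631 and 8213, without overlap, and rose 16.2-fold (log2 change 4.02 ± 0.39, SE, limma adjusted p = 8.03e-07), the largest rise named. Its day 0 arrays spanned 5432 to 7399.9. Gdf10, a BMP-related ligand, rose 7.31-fold (adjusted p = 1.77e-06), Chrdl1, a BMP antagonist, 5.9-fold (adjusted p = 0.00014) and Car8, a carbonic anhydrase-related protein, 6.84-fold (adjusted p = 4.86e-06). Igfbp5, an IGF-binding protein, read 3155, 4262, 9684 and 7587 on day 5 and 65133, 23856, 42066, 35268 and 48285 on day 60 and rose 7.13-fold (log2 change 2.83 ± 0.28, SE, limma adjusted p = 8.36e-07), but the middle one of its probe sets gave a change of -0.03. Scara5, Car8 and Chrdl1 were likewise not called on their middle probe sets.

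Genes of dividing cells fell as a body. Of 30 mitotic genes, which build the spindle and drive entry into and exit from mitosis, 27 fell and none rose, with a median log2 change of -1.14. The list mean ran from 11.52 to 11.67 on day 5 arrays and from 10.2 to 10.72 on day 60 arrays. Kif20a, a kinesin of the final stage of division, read 817, 679.5, 664 and 870.5 on day 5 and 88, 296, 12, 163.8 and 48.8 on day 60, with no overlap, and fell 4.25-fold (log2 change -2.09 ± 0.29, SE, limma adjusted p = 3.48e-05). Nuf2, a kinetochore subunit, read 3782, 2747, 1469 and 2327 and then 438, 762, 430.2, 978 and 530.3 and fell 3.64-fold (log2 change -1.87 ± 0.37, SE, limma adjusted p = 0.00109). Mki67 and Top2a, common markers of proliferation, fell 1.84-fold from 13425 ± 2243 to 7236 ± 1172 and 1.85-fold from 7620.3 ± 814 to 4145 ± 908 (SD, n = 4 and n = 5). Cenpf, Foxm1 and Tpx2 did not pass, with log2 changes of -0.43, 0.087 and 0.089.

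Promoters of mitotic genes are known for a cell cycle homology region, TTTGAA, and for CCAAT boxes bound by NF-Y. In the RefSeq promoter table (GRCm38.p6) 26 of the 32 listed mitotic genes were matched, and TTTGAA lay within 250 bases upstream of a start, on either strand, in 10 of them (38.5%), against 13.3% of the 10917 tested genes in the table. CCAAT was there in 20 of 26 (76.9%), against 39.6%. It also lay in 16 of 26 DNA replication genes (61.5%) and in 8 of 23 interferon-stimulated genes (34.8%). Among members called lower CCAAT lay in 18 of 24 mitotic genes (75%) and in 11 of 14 replication genes (78.6%). For interferon-stimulated genes called lower the count was 3 of 11 (27.3%). TTTGAA also lay in 6 of 23 interferon-stimulated genes (26.1%), in 5 of 11 of those called lower (45.5%), and in 4 of 26 DNA replication genes (15.4%). The genes of largest called fall that hold TTTGAA were Ccnb2 (cyclin B2, which fell 3.5-fold), Cdk1 (its kinase, 3.35-fold), Ect2 (which positions the cleavage furrow, 3.19-fold) and Cdc20 (the activator of anaphase, 2.64-fold). These 4 were picked for their fall and for their TTTGAA, so that they share both was set by the choice. Stretches of 120 upstream bases are shown on the gene's strand, 5' to 3', with TTTGAA and CCAAT on either strand in capitals. They lie at chr9:70421659-70421778 (minus strand), chr10:69352913-69353032 (minus strand), chr3:27153930-27154049 (minus strand) and chr4:118437344-118437463 (minus strand) in that order.
Ccnb2: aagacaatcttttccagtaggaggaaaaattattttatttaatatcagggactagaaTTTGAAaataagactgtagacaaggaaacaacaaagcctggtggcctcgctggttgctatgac
Cdk1: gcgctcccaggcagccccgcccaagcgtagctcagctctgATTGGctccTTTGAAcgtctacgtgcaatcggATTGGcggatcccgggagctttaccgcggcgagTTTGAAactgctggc
Ect2: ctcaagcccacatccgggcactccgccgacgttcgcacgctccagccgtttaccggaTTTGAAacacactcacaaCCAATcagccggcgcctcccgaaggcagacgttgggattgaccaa
Cdc20: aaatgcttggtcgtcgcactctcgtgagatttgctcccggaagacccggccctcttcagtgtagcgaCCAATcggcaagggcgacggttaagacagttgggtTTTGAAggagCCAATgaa
Cdk1 holds 2 copies of TTTGAA and 2 of its CCAAT boxes appear here as the reverse complement. A match describes the letters and does not show that a factor binds there.

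Ccnb2 read 4546, 2884, 2714 and 2499.9 on day 5 and 544, 1307, 673, 729.8 and 948 on day 60. Cdk1 read 6570.5, 6092, 7080.1 and 5842 and then 1603, 2540.4, 2016, 1490.2 and 1675. Cdc20 read 13922, 11068, 12788 and 13113 and then 3346, 7256, 3886, 5011 and 5001. In each of them every day 60 array lay below every day 5 array, with adjusted p of 0.00132, 1.72e-05 and 8.04e-05 by limma.

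Of 29 tested DNA replication genes 19 fell and none rose (median -0.76). Gins2, a subunit of the replicative helicase, read 2863, 2052, 1599 and 1959 on day 5 and 280.3, 408, 229.6, 346 and 304 on day 60 and fell 5.31-fold (log2 change -2.41 ± 0.35, SE, limma adjusted p = 6.87e-05). Tk1, thymidine kinase of S phase, fell 3.67-fold (adjusted p = 0.000743), Mcm6 and Mcm5 of the helicase ring fell 3-fold and 2.21-fold, and Rrm2, which makes deoxynucleotides, fell 1.88-fold. Fen1, Cdc45 and Gins3 had log2 changes of -0.094, 0.039 and -0.11, none called.

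**Figure D3:**
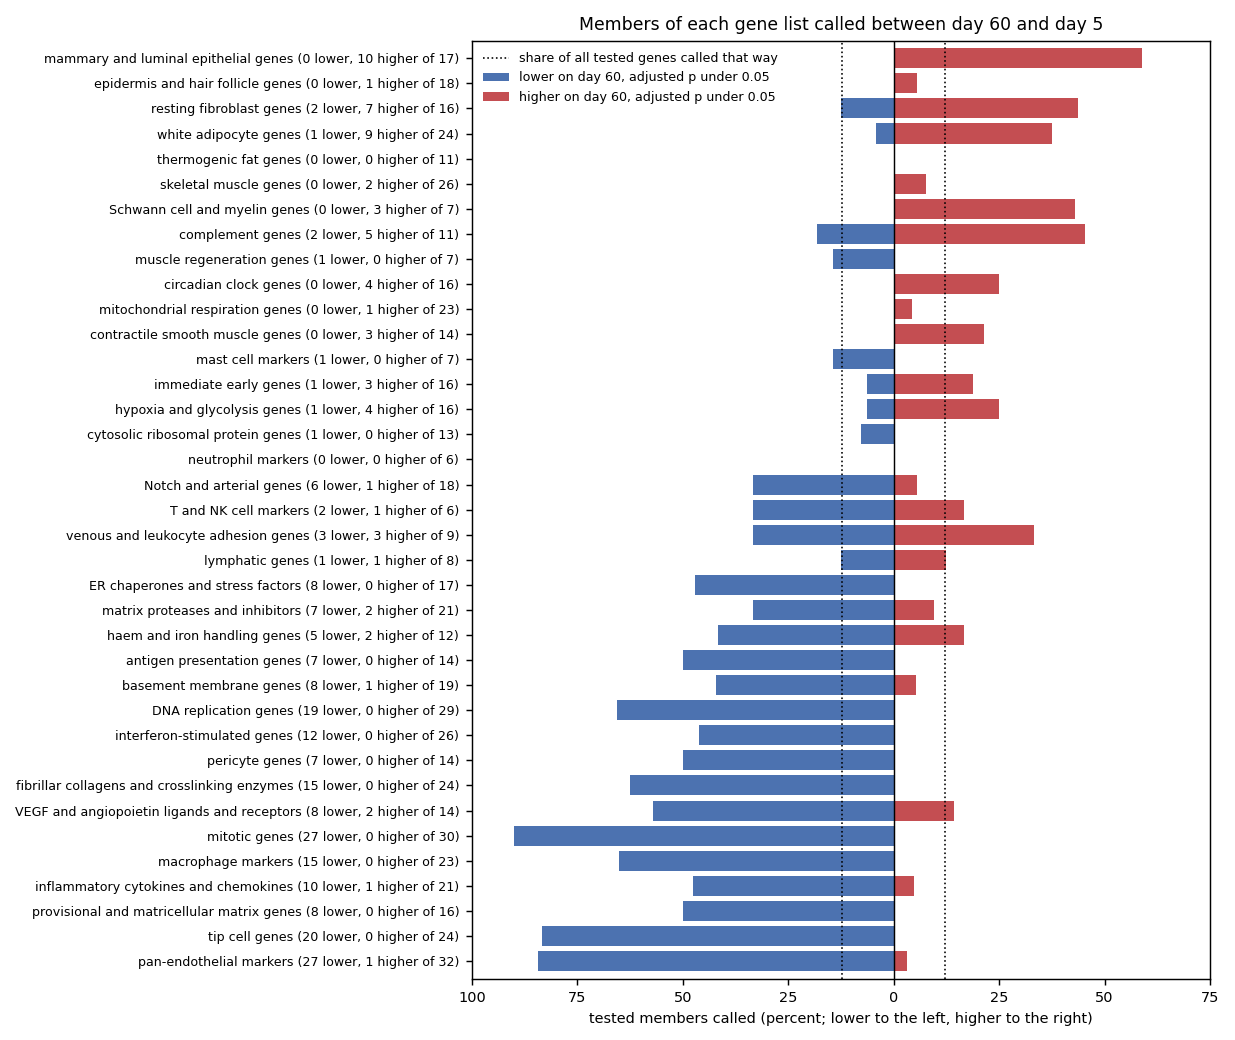
Share of the tested members of each gene list called lower (left, blue) or higher (right, red) on day 60, in percent, ordered by the median change, with dotted lines at the share of all tested genes called in each direction (12.2% both ways). Mitotic genes, pan-endothelial markers and tip cell genes have the longest bars to the left, and mammary and luminal epithelial genes the longest to the right.

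Macrophage markers fell in 15 of 23 members and rose in none (median -1.29). Msr1, a scavenger receptor, read 15197, 8963, 7408 and 9482 on day 5 and 1475, 1260.2, 336, 1851 and 1732 on day 60, all lower, and fell 7.85-fold (log2 change -2.97 ± 0.38, SE, limma adjusted p = 1.7e-05). Fcgr1, the high affinity antibody receptor of monocytes, fell 4.86-fold (log2 change -2.28 ± 0.31, SE, limma adjusted p = 2.83e-05). Cd68, a lysosomal marker, fell 3.49-fold, Cx3cr1, a receptor of patrolling monocytes, 4.17-fold and Adgre1, the F4/80 antigen, 2.66-fold. Csf1r, the receptor on which macrophages depend, averaged 66161 ± 8897 and 50358 ± 25036 (SD, n = 4 and n = 5, log2 change -0.58, adjusted p = 0.222), and Cd163, of resident macrophages, had a log2 change of -0.37. The list mean varied more on day 60, from 10.94 on array C to 12.68 on array E, than on day 5, from 12.69 to 13.3. Without day 60 A, B and D, 9 members were called lower.

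Among 21 inflammatory cytokines and chemokines 10 fell and 1 rose (median -1.38). Ccl2, the chief attractant of monocytes, read 7321, 3286, 2602 and 2052 on day 5 and 232, 262, 123, 236 and 270.2 on day 60. Day 5 B was the highest array, and all day 60 arrays lay under all day 5 arrays. Ccl2 fell 10.9-fold (log2 change -3.44 ± 0.31, SE, limma adjusted p = 3.05e-07). The related Ccl12 and Ccl7 fell 8.46-fold and 7.13-fold, Ccl5 fell 5.95-fold, Il6 fell 4.43-fold and the interferon-induced Cxcl9 and Cxcl10 fell 4.61-fold and 3.55-fold. Cxcl13, which draws B cells, read 1796, 409, 469 and 554 on day 5 and 5176, 1595, 2349, 4758 and 18940.3 on day 60. The groups overlapped, with day 60 E far above the rest, and Cxcl13 rose 5.92-fold (log2 change 2.57 ± 0.55, SE, limma adjusted p = 0.002). Ccl11, Cxcl1 and Cxcl14 had log2 changes of 0.0039, -0.077 and 0.12, none called.

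Interferon-stimulated genes fell in 12 of 26 members and rose in none (median -0.83). Gbp3, a guanylate-binding defence protein, read 8214, 7609, 6996 and 7742 on day 5 and 2667, 1861, 923, 2166 and 3542 on day 60, with no overlap, and fell 3.6-fold (log2 change -1.85 ± 0.24, SE, limma adjusted p = 2.28e-05). Irgm1, an immunity-related GTPase, fell 2.52-fold (log2 change -1.33 ± 0.20, SE, limma adjusted p = 9.16e-05), and Oas1a, a sensor of viral RNA, fell 2.47-fold (adjusted p = 0.0015). The core of the interferon response element, searched as GAAA, any 2 bases and GAAA again, was found on either strand within 250 bases upstream in 12 of 23 matched interferon-stimulated genes (52.2%), against 3.21% of tested genes. Among the members called lower, 5 of 11 (45.5%) held them. The stretches of Gbp3 (chr3:142559990-142560029 (plus strand)), Irgm1 (chr11:48871421-48871459 (minus strand)) and Oas1a (chr5:120907526-120907554 (minus strand), GRCm38.p6) are shown 5' to 3' on the gene's strand with every match in capitals. These genes had the largest falls among the called members that hold the element, and called members without it were passed over.
Gbp3: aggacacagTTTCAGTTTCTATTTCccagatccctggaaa
Irgm1: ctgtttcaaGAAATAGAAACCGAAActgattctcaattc
Oas1a: ccttctcggGAAATGGAAACTGAAAatct
Each capital run holds 2 overlapping matches, which in Gbp3 read as the reverse complement.

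Of 14 antigen presentation genes 7 fell and none rose. H2-D1 and H2-K1, heavy chains of MHC class I, fell 2.61-fold (adjusted p = 0.000129) and 2.15-fold (adjusted p = 0.000349) and their partner B2m 1.87-fold, although probe sets of the class I family may share transcripts. Of class II, Cd74 fell 1.84-fold, while H2-Aa, H2-Eb1 and H2-Ab1 had log2 changes of -0.37, -0.48 and -0.51, none called. Complement genes moved in both directions: of 11, 5 rose and 2 fell. C1s1, a protease of the classical pathway made by fibroblasts, read 3709, 2144, 5173 and 3572 on day 5 and 14973, 7802, 8298, 12412 and 24450.0 on day 60 and rose 3.49-fold (log2 change 1.80 ± 0.28, SE, limma adjusted p = 0.000106), and Cd55, which disarms complement on cells, rose 3.46-fold. C3ar1, an anaphylatoxin receptor of myeloid cells, fell 4.58-fold (adjusted p = 0.000677) and Cfb fell 2.02-fold, a call lost without day 60 A, B and D. The count of 5 came to between 2 and 3 in 8 other settings.

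Haem and iron genes fell in 5 of 12 members and rose in 2. Hmox1, haem oxygenase of macrophages that clear red cells, read 7098, 4234, 3739 and 4935 on day 5 and 409, 379, 436, 637 and 298 on day 60, with every day 60 array far lower, and fell 9.51-fold (log2 change -3.25 ± 0.29, SE, limma adjusted p = 2.63e-07). The biliverdin reductases Blvrb and Blvra, which act after it, fell 2.03-fold and 1.64-fold. Tfrc, the transferrin receptor, rose 1.54-fold (adjusted p = 0.00577), but its middle probe set gave a change of -0.42. Neutrophil markers gave no call in 6 tested members: S100a8 averaged 5517 ± 3496 and 5092 ± 1579 (SD, n = 4 and n = 5) and S100a9 2164 ± 1279 and 2102 ± 699. Of the T and NK cell markers 6 were tested and 9 lay under the minimum signal. Gzma, a granzyme, fell 2.78-fold (adjusted p = 0.000229), Ncr1 fell 1.52-fold and Prf1 rose 1.49-fold. The call of Ncr1 was lost in 19 other settings, and that of Prf1 was lost in 7 and turned to -0.25 with its middle probe set. Of 7 mast cell markers Tpsab1, a tryptase, fell 2.2-fold (adjusted p = 0.000958). Of 4 B and plasma cell markers Jchain, the joining chain of secreted antibodies, rose 2.33-fold. Over all tested genes 12.2% were called in each direction.

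Of 17 mammary and luminal epithelial genes 10 rose and none fell, with a median log2 change of 1.41. Pgr, the progesterone receptor, read 964, 372, 995 and 878 on day 5 and 25067, 6172, 2147, 21461 and 7898 on day 60. Day 60 A and D were the highest and C the lowest, and all were above day 5. Pgr rose 10.6-fold (log2 change 3.40 ± 0.52, SE, limma adjusted p = 0.000112). Foxa1, a transcription factor of luminal cells, read 10.6, 246, 71.7 and 35.4 and then 197, 5384, 749.8, 3355 and 984, with day 60 A inside the range of day 5, and rose 8.05-fold (log2 change 3.01 ± 0.58, SE, limma adjusted p = 0.000832). The luminal keratins Krt19, Krt8 and Krt18 rose 5.82-fold, 5.25-fold and 4.82-fold, and Epcam and Cdh1, of epithelial junctions, 2.79-fold and 2.28-fold. Milk protein genes Wap, Csn2 and Lalba had log2 changes of 0.45, -0.061 and -0.36, none called.

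The level of these genes differed from array to array on day 60. The luminal list mean was 11.69 on array B, 11.6 on D, 10.63 on E, 10.62 on C and 9.98 on A, against 9.3 to 9.59 on the day 5 arrays and 11.8 to 12.08 on the day 0 arrays. White adipocyte genes followed the same order at the ends, with 13.2 on array B, 12.99 on D and 11.3 on A, against 11.03 to 11.6 on day 5. Skeletal muscle genes stood at 11.86 on day 60 B and at 14.22 to 15.43 on the other day 60 arrays. They were uneven on day 5 as well, from 12.36 on array B to 14.41 on array D. The part of these differences in the changes of other genes was not tested.

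**Figure D4:**
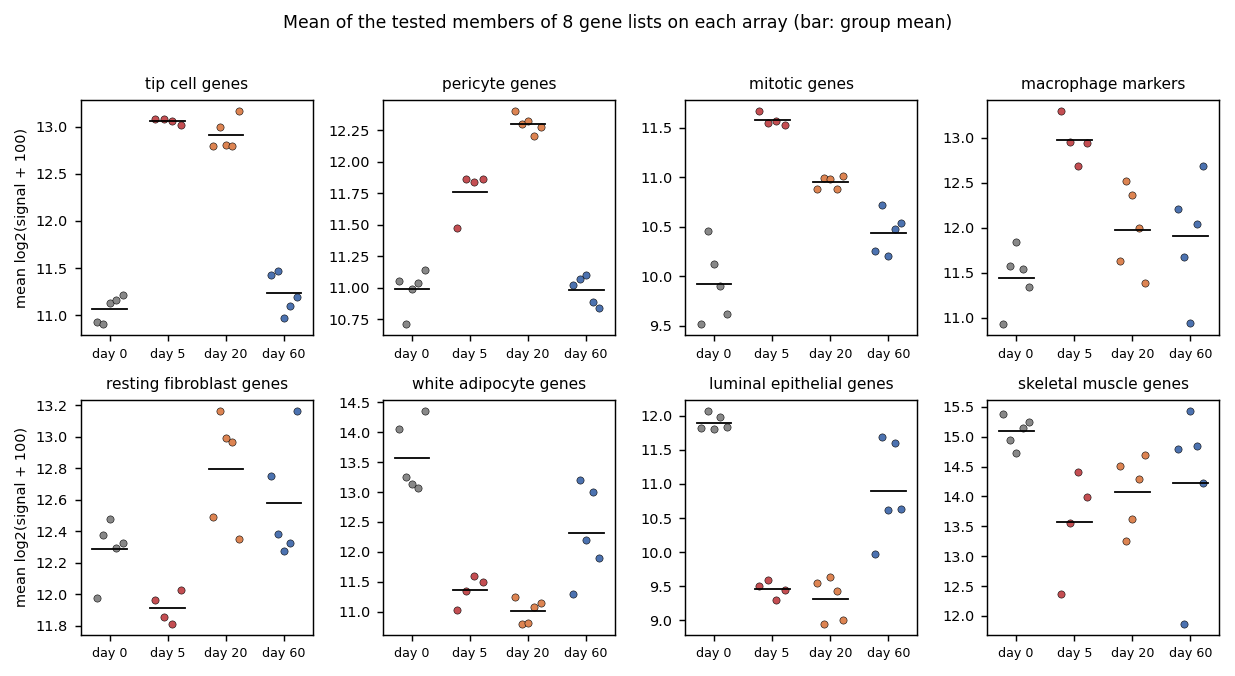
Mean log2(signal + 100) of the tested members of 8 gene lists (y axes) on each of the 19 arrays by day, with a bar at each group mean. Tip cell, pericyte and mitotic genes on day 60 lie below day 5 on every array, while adipocyte and luminal epithelial genes spread widely on day 60. Skeletal muscle genes are low on 1 array of day 60 and are also spread on day 5.

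Of 24 white adipocyte genes 9 rose and 1, Pparg, fell (median 0.79). Thrsp, a regulator of fat synthesis, read 268, 1160.1, 1699 and 779 on day 5 and 2662, 28501, 6499.9, 14464 and 4242 on day 60, with B the highest and A the lowest of day 60, and rose 8.65-fold (log2 change 3.11 ± 0.75, SE, limma adjusted p = 0.00495). Ces1d, a fat cell lipase, rose 9.01-fold (log2 change 3.17 ± 0.53, SE, limma adjusted p = 0.00026). Scd1 and Fasn, enzymes of fatty acid synthesis, rose 3.23-fold and 2.91-fold. The calls of Thrsp and Scd1 were lost with their middle probe sets and without day 60 A, B and D. Adipoq, the hormone adiponectin, read 2745, 4819.8, 4561 and 3603 and then 633, 38909.8, 9055, 17640.5 and 4094, from below to far above the day 5 arrays, and did not pass (log2 change 0.87, limma adjusted p = 0.419). Pparg, the master regulator of fat cells, read 633, 701, 939.6 and 949 and then 210.1, 474, 259, 491 and 248, all lower, and fell 2.13-fold (log2 change -1.09 ± 0.26, SE, limma adjusted p = 0.00422). With the middle probe set of each gene 5 members were called higher. None of 11 thermogenic fat genes was called, and Ucp1, the uncoupler of brown fat, averaged 71.9 on day 5 and 103 on day 60.

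Skeletal muscle genes had a positive median change (median 0.64), but only Casq1 and Myh1 of 26 were called, against 12.2% of all tested genes called higher. Casq1, the calcium store protein of fast muscle, read 1254, 3892, 7309 and 3968 on day 5 and 27744, 4429, 29335, 18518 and 9464 on day 60, where array B stayed within the day 5 range, and rose 4.08-fold (log2 change 2.03 ± 0.53, SE, limma adjusted p = 0.0083). Myh1, a fast myosin, rose 1.49-fold (adjusted p = 0.0214), a call lost in 7 other settings. Without day 60 B 15 members were called higher. Ppp1r3c, a glycogen-targeting subunit that muscle and fat express, read 1245, 5161, 11000.3 and 8412 and then 72772, 14726, 84871, 51047 and 29546 and rose 8.37-fold (log2 change 3.06 ± 0.55, SE, limma adjusted p = 0.000467). Chrna1, the acetylcholine receptor subunit that denervated and growing fibres raise, fell 2.61-fold (adjusted p = 0.00379). It was the only one of 7 muscle regeneration genes to be called, against a list median of 0.33, and the call was lost without day 60 A, B and D. Of 23 mitochondrial respiration genes Atp5a1 rose 1.45-fold (adjusted p = 0.0291), a call lost in 8 other settings, and no member fell.

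Schwann cell genes rose in 3 of 7 members and fell in none. Mbp, a protein of myelin, read 9210.1, 8580.1, 8260.3 and 10428 on day 5 and 65616, 48772, 72827, 35415 and 40437 on day 60. The day 5 arrays lay close together and every day 60 array was above them. Mbp rose 5.53-fold (log2 change 2.47 ± 0.31, SE, limma adjusted p = 1.32e-05), S100b, a glial calcium-binding protein, 3.77-fold (log2 change 1.91 ± 0.25, SE, limma adjusted p = 1.9e-05) and Pmp22 1.8-fold. Sox10, the transcription factor of glia, averaged 773 and 741, and Mag had a log2 change of -0.14.

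Epidermis and hair genes had a positive median change (median 1.14), and 1 of 18, Trp63, was called, against 12.2% of all tested genes called higher. Trp63, the p63 regulator of basal keratinocytes, read 4176, 3614, 3343 and 4233 on day 5 and 9269, 11159, 6756, 11836 and 12443 on day 60, with no overlap, and rose 2.59-fold (log2 change 1.37 ± 0.38, SE, limma adjusted p = 0.0124). Its call was lost without day 60 A, B and D. In 6 of the 18 every day 60 array lay above every day 5 array, as in 9.81% of all tested genes. Flg, the barrier protein filaggrin, read 1443, 222, 277 and 326 and then 112, 3758, 9143, 9259 and 1682, with A under all day 5 arrays, and did not pass (log2 change 2.31, limma adjusted p = 0.149). In the fit of the 9 arrays alone 11 members were called higher, and with the Actb ratio as a covariate 9 were.

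Of 17 ER chaperones and stress factors 8 fell and none rose, led by Pdia3 and Pdia4, which fold secreted proteins (3.49-fold, adjusted p = 0.000127, and 2.14-fold, adjusted p = 0.00122), although another probe set of Pdia3 gave a change of 0.10. Hypoxia and glycolysis genes rose in 4 of 16 members and fell in 1. Egln3, an oxygen sensor, rose 2.68-fold (adjusted p = 0.00085) and Ndrg1 2.55-fold (adjusted p = 6.1e-06), Hk1, a hexokinase, fell 1.37-fold and the glucose carrier Slc2a1 had a log2 change of 0.037. Without day 60 B, 7 were called higher. Clock genes rose in 4 of 16, with Npas2, the partner of Bmal1, 2.09-fold higher (adjusted p = 0.00037), and 1 or 2 passed in 10 other settings. Of 16 immediate early genes 3 rose and 1 fell, beside 12.2% of all tested genes called in each direction. Fos and Egr1 had log2 changes of -0.0085 and 0.49. Of 13 ribosomal protein genes Rps19 fell 1.37-fold, a call lost in 10 other settings, and the other 12 did not pass. The 2 red cell genes tested did not pass either.

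Several large falls belonged to no listed theme. Tmem255a, a membrane protein, read 22819, 14858, 8928 and 10844 on day 5 and 949, 639, 369.5, 779.8 and 1332 on day 60 and fell 15.9-fold (log2 change -3.99 ± 0.27, SE, limma adjusted p = 1.39e-08). Gimap4, a GTPase of lymphocytes and endothelium, read 33961, 32759, 36675 and 27819 and then 3058, 2759, 3192, 2383 and 2825. Both groups were tight and far apart, and Gimap4 fell 11.2-fold (log2 change -3.48 ± 0.18, SE, limma adjusted p = 4.51e-10). Ms4a4c, a four-span membrane protein of myeloid cells, fell 15.1-fold (log2 change -3.92 ± 0.44, SE, limma adjusted p = 3.96e-06) and Fam167b 13.3-fold (adjusted p = 6.44e-09). Idi2, an isopentenyl diphosphate isomerase, fell 13.8-fold (adjusted p = 0.00736), but its day 0 arrays ranged from 21.4 to 2023, and the call was lost with the Actb ratio as a covariate and without day 60 A, B and D.

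Day 60 was also set beside day 0, and since the day 60 arrays are in both comparisons, the values are given side by side and are not independent. Against day 0, 50 genes (0.368%) were higher on day 60 and 104 (0.765%) were lower. Tip cell, pan-endothelial and pericyte genes had medians of 0.14, 0.10 and 0.03 from day 0 to day 60, and none of their 24, 32 and 14 members was called. Kcne3 stood at 224 ± 106 (SD, n = 5) on day 60 and 103 ± 38.2 (n = 5) on day 0, and Esm1 at 2922 ± 2556 and 904 ± 304. Mitotic genes kept a median of 0.63 above day 0, with 5 of 30 called higher, while 2 of 29 replication genes were. Top2a averaged 2066 on day 0, 7620.3 on day 5 and 4145 on day 60.

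White adipocyte genes had a median of -1.25 from day 0 to day 60 with 5 of 24 called lower, and mammary and luminal genes -0.84 with 2 of 17 called lower. Foxa1 averaged 7414 ± 2189 on day 0 (SD, n = 5) and 2134 ± 2182 on day 60 (n = 5, log2 change -2.39, limma adjusted p = 0.0394). Pparg was lower on day 60 than on day 0 as well (-1.41, adjusted p = 0.0111). Skeletal muscle genes had a median of -0.87 and none called. Chosen after their values were seen, Nrp2 (0.74, adjusted p = 0.0159) and the lymphatic gene Mmrn1 stood above day 0. Mmrn1 averaged 1021 on day 0, 1958 on day 5, 6709.5 on day 20 and 5034 on day 60 (log2 change from day 0 1.91, adjusted p = 0.0293).

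The day 20 arrays dated the changes. Between day 5 and day 20, 415 genes (3.05%) rose and 306 (2.25%) fell, and between day 20 and day 60, 1489 (11%) rose and 1522 (11.2%) fell. The later change exceeded the earlier one in 654 genes (4.81%) and lay under it in 827 (6.08%), by a limma contrast of both intervals. Both intervals share the day 20 arrays, so a high or low day 20 value moves them in opposite directions. The 654 came to 350 without day 20 B, 388 without day 20 E, 434 without day 5 E, 385 without day 60 A, B and D, and 1112 with array weights.

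**Figure D5:**
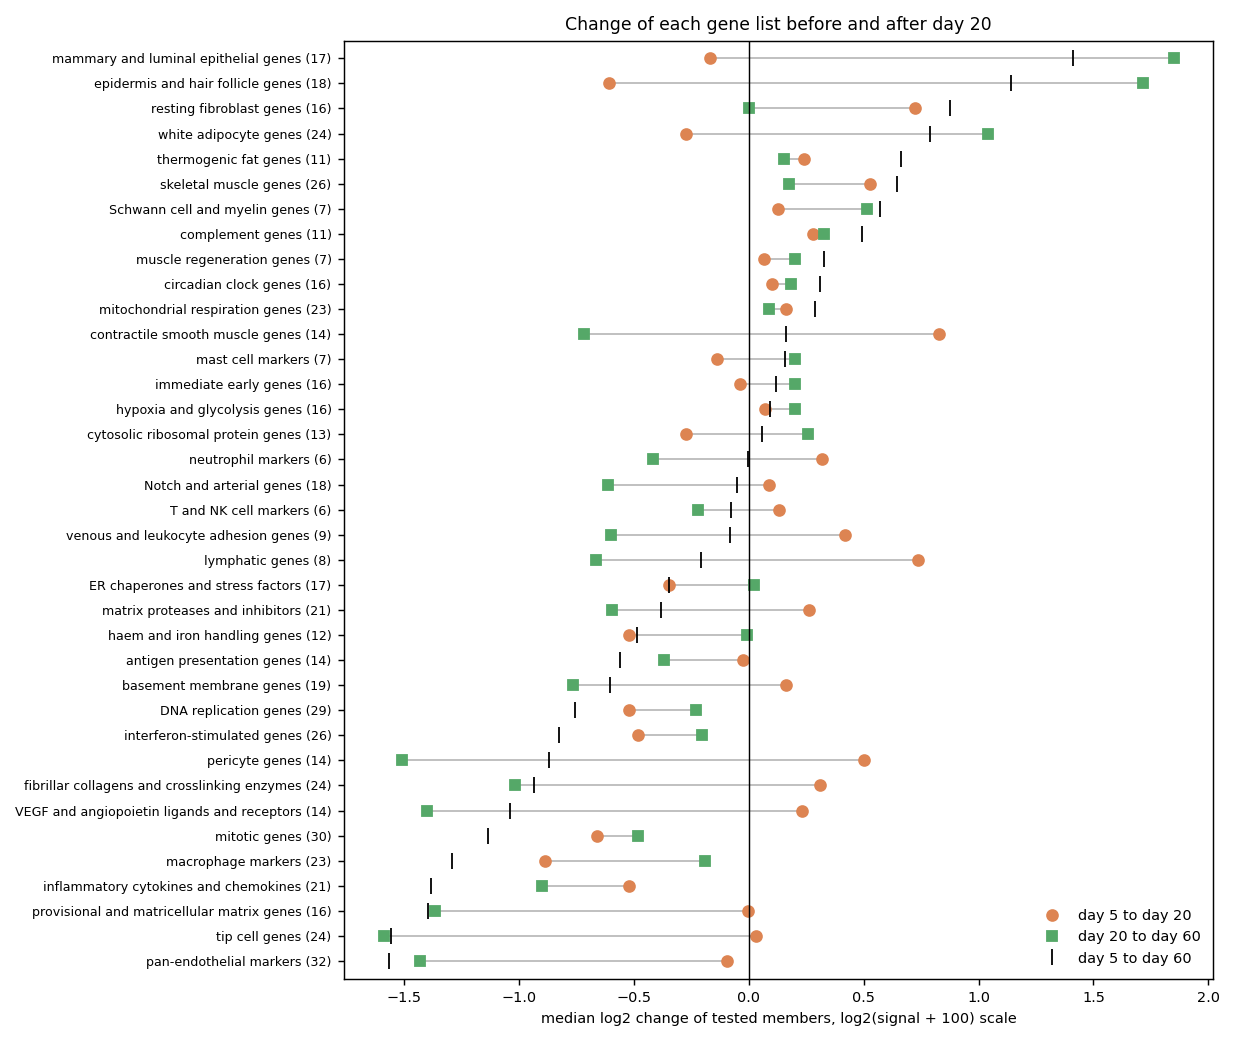
Median log2 change of the tested members of each gene list from day 5 to day 20 (circles), from day 20 to day 60 (squares) and from day 5 to day 60 (ticks), with the number of members in parentheses. The medians of the tip cell, pan-endothelial, pericyte and collagen lists change mainly after day 20. The median of the macrophage markers changes mainly before it, although members were called in both directions after day 20.

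Tip cell genes had a median change of 0.033 up to day 20 and -1.59 after it, and the intervals differed in 15 of 24 members, all with the lower change late. Pan-endothelial markers changed by -0.094 and then -1.43, and 20 of 32 differed in the same direction. Esm1 averaged 29185 on day 5, 30270.2 on day 20 and 2922 on day 60. Vegfa itself averaged 9256 on day 20 on its brighter probe set, and the interval contrast was -4.69 (limma adjusted p = 7.42e-05). Its second probe set averaged 720 on day 5, 1029 on day 20 and 1750 on day 60. Pcdh17, a protocadherin, averaged 3194, 5713 and 384 on the 3 days (interval contrast -4.38, adjusted p = 7.15e-07).

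Pericyte genes had median changes of 0.50 and -1.51, and the intervals differed in 10 of 14 members. Pdgfrb averaged 26488 on day 5, 56539 on day 20 and 11377 on day 60. Contractile smooth muscle genes had medians of 0.83 and -0.72, with 7 of 14 differing. Collagens and crosslinking enzymes had 0.31 and -1.02, with 12 of 24 differing. Mmp13 averaged 1834, 15518 and 618, and Slc16a12, a creatine carrier, 3771, 10583 and 1755 on days 5, 20 and 60.

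Macrophage markers had medians of -0.89 before and -0.19 after day 20, and the later change was the higher one in 4 members (Vsig4, Folr2, Cd163 and Gpnmb) and the lower one in Clec7a. In no other of the 23 members was the interval contrast called. Before day 20, 6 members were called lower and none higher, and after it 4 were called higher and 3 lower. Hmox1 averaged 5002, 955 and 432. Mitotic genes had medians of -0.66 and -0.48, and the intervals differed in 2 of 30 members (Cdc20 and Nek2). Resting fibroblast genes had medians of 0.72 and -0.00062. Before day 20, 5 of 16 were called higher and none lower, and after it 3 were called higher and 4 lower. The intervals differed in 5 members, all with the lower change late. Lum averaged 8030.2 on day 5, 27623 on day 20 and 27895 on day 60. Pi16 averaged 935, 2595 and 15265 on these days. Its log2 change was 1.40 before day 20 (limma adjusted p = 0.0849) and 2.26 after it (limma adjusted p = 0.000918). The 2 changes did not differ by the interval contrast (0.86, limma adjusted p = 0.551).

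Mammary and luminal genes had medians of -0.17 and 1.85, white adipocyte genes -0.27 and 1.04, and the later change was the higher one in 7 of 17 and 8 of 24 members. Scd1 averaged 13447, 6372 and 50605 on days 5, 20 and 60. Adamts20, a protease of pigment cell migration and skin, averaged 1743, 632 and 5239 (interval contrast 4.10, limma adjusted p = 0.000179). The epithelial genes Esrp1, a splicing regulator, and St14, the protease matriptase, followed the same course, with interval contrasts of 4.06 and 4.02.

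Genes with the largest spread inside a group show where a group mean says little. On day 60 these were Ido1, Cyp2e1, Flg, Lcn2 and Adipoq. Ido1, which breaks down tryptophan, read 61.1, 271, 325, 9943 and 1949, with D and E high. Cyp2e1, an oxidase of fat and liver, read 686, 52768, 9320.5, 22741 and 4807 and Lcn2, the secreted lipocalin-2, 6.5, 5844, 710.5, 1508 and 198, both highest on array B and lowest on array A. On day 5 the widest were Arsj, Mybph, Krtap9-3, Smad7 and Pgam2. Array B stood apart in Arsj, an arylsulfatase (2705, 352, 114 and 192), and in Mybph and Pgam2, both of muscle (8.4, 391, 1492 and 335 and 1279.8, 9389, 13745 and 9038). Array C stood apart in Krtap9-3, a hair protein (1101, 7629, 674 and 728), and was the highest in Smad7, an inhibitor of TGF-beta signalling (505, 8004, 1702 and 2896). None of these passed between day 60 and day 5 except Cyp2e1 (limma adjusted p = 0.0339), whose call was lost in 9 other settings.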

How the data were processed

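RNA of mouse flank tissue was read on Affymetrix Mouse Genome 430 2.0 arrays. Per the labels' protocols and the submitters' processing notes, the authors deposited MAS5 signal intensity on a linear scale (GCOS 1.3, MAS 5.0), scaled to 1500 by a contract laboratory. Of 45101 probe sets, 34945 had 1 gene symbol in the platform annotation, 932 had several and 9224 had none. The probe set with the highest mean signal stood for each of 18193 genes. Genes with a mean signal of at least 300 over the 19 arrays (13594) were tested.

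Values were log2(signal + 100). One limma 3.58.1 fit (R 4.3.3, eBayes with trend) over 19 arrays, with a mean per group, gave day 60 minus day 5, day 60 minus day 0, both intervals around day 20 and the difference of the intervals, with Benjamini-Hochberg adjustment over all tested genes. Lists are described by counts and medians beside those of all tested genes, with no set test. The 39 lists name 702 different genes, of which 44 had no probe set of their own. Counted by list, where a gene can stand in more than 1, 47 entries lay under the minimum. Permutation tests used Python 3.11.15 and scipy 1.17.1. The number of arrays limits the precision.

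Named genes were Vegfa, Kdr, Flt1 and Pgf, the 12 largest called rises and falls whose arrays did not overlap, the 2 most changed called members of each list with at least 5 tested members and any called member against its list's direction, the 5 genes of largest spread in each group, and the 4 called genes at either end of the interval contrast that also differed between day 60 and day 5. Riken, Gm and LOC models were passed over in ranking. Other list members named in the text were picked as examples after their values were seen. Members and lists were chosen with earlier results of these data known. The fit was tested on simulated data. Alternatives covered the pseudocount, minimum, scaling, weights, probe set, arrays fitted, replicate block, RNA integrity and each array left out.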

Additional observations from a re-analysis of the deposited data

Results flagged for a closer look

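In 128 groups of 4 or 5 values (27 genes and the list means), the gap of the highest or lowest array to its neighbour was set against the whole range (Dixon's ratio at the 95% level, which chance alone exceeds in about 1 in 20 groups). An array stood apart in 6 groups. On day 5, array B was the lowest for Flt1, at 6580.4, for the mean of the pericyte genes, at 11.47 on the log2(signal + 100) scale, and for that of the contractile smooth muscle genes, at 11.34. Array C of day 5 was the lowest for Pgr, at 371.6. On day 60, array B was the highest for Kcne3, at 410.3, and array C the lowest for the mean of the antigen presentation genes, at 11.24.

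The array with conflicting labels, which entered no comparison, gave a Vegfa signal of 11111.1, against a highest day 0 signal of 467.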

How the results depend on the processing

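The comparison was repeated in 33 other settings, 19 of which left out 1 array. Of 101 named genes that were called, 67 were called in every setting in which they were tested. Of 1287 list medians, 1267 stayed within 1 SD of the reported value. The other 20 moved further, and none of these changed sign. Genes at least 2-fold higher numbered 261 with a pseudocount of 500 and 323 with the middle probe set of each gene, where 10952 genes were tested. With the middle probe set 877 genes were higher, and the interval contrast was positive in 382 and negative in 486. With array weights these were 1112 and 1247. Without day 60 A, B and D, 861 genes were higher and 385 had a positive interval contrast.

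Leaving out 1 array at a time gave 1101 to 1771 genes higher and 1326 to 1738 lower, 373 to 573 at least 2-fold higher and 570 to 701 at least 2-fold lower, and 350 to 768 positive and 564 to 886 negative interval contrasts. With the middle probe set the change was 1.13 for Vegfa, -0.030 for Igfbp5, -0.023 for Nrp2, 0.10 for Pdia3, -0.25 for Prf1 and -0.42 for Tfrc, each opposite to the value reported. With the Actb ratio as a covariate Krtap9-3 turned to 0.53. For 4 of the genes chosen for their spread, none of which was called, leaving out 1 array gave -0.957 (without day 5 D) to 0.15 (without day 5 C) for Krtap9-3, -1.01 (without day 5 D) to 0.23 (without day 5 B) for Arsj, -0.067 (without day 5 B) to 1.23 (without day 60 B) for Mybph and -0.048 (without day 60 B) to 1.40 (without day 60 A) for Lcn2. The cause was not tested.

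Arrays of different groups share only a letter: deviations of same-letter arrays correlated at 0.147 (B), 0.171 (C), 0.163 (D) and 0.014 (E). With the letter as a replicate block 1541 genes were higher and 1541 lower.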
